A study of Mus musculus with 6 samples.

Results

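The genes described here are 41 components of the extracellular matrix other than collagens, with the markers of the fibroblasts that make much of it. They were taken by symbol from transcript clusters annotated to a single gene, out of 19938 genes measured in that way on the array. Of these, 39 were measured: Fbn1 was not matched by its symbol, and Loxl2 lay only on a cluster annotated to several genes, so neither is reported. None of the 39 had more than 1 single-gene cluster. All 39 passed the filter on dim genes, a mean over the 6 hearts of at least 3.45 on the log2 scale. The filter used all hearts together and not the difference between groups.

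Elastic fibres are built from elastin laid on a scaffold of fibrillin microfibrils, with fibulins, emilins and microfibril-associated proteins, and lysyl oxidases then crosslink elastin and collagen. Small leucine-rich proteoglycans such as decorin and biglycan bind collagen fibrils, while perlecan and nidogens join the sheet-like basement membranes that surround heart muscle cells and capillaries. Matricellular proteins such as periostin and the thrombospondins carry signals from the matrix to cells, and much of the interstitial matrix of the growing heart comes from fibroblasts that carry Pdgfra, Tcf21 and Ddr2.

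Heart tissue was taken from C57BL/6J mice on postnatal day 14, and the total RNA of each heart was read on its own Affymetrix whole-transcript array. The mice had been injected with ETX (3 hearts, replicates 6, 7 and 10) or with its vehicle, phosphate-buffered saline or PBS (3 hearts, replicates 3, 9 and 12), for 1 week. The labels do not spell out ETX, and no dose is stated in them. The hearts are described as biological replicates, and no allele or transgene is named. The comparison of ETX with PBS is the one the design holds, and every difference below is the mean log2 signal in ETX minus that in PBS. In bulk RNA of a heart, fewer cells of a type and less RNA per cell cannot be told apart.

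The deposited values are log2 signals with array medians between 4.43 and 4.51, and the 6 arrays limit the precision. The cardiomyocyte markers, such as Myh6 and Tnnt2, averaged 12.45 to 12.48 in PBS and 12.34 to 12.46 in ETX. Some hearts stood apart. Lung epithelium markers, 9 genes including the surfactant gene Sftpc, averaged 5.97 and 7.50 in PBS replicates 3 and 9 (called lung-marked below). They averaged 3.55 in PBS replicate 12 and 3.63 to 3.69 in ETX. Atrial markers, 6 genes including Myl7, averaged 8.26, 7.52 and 7.65 in PBS replicate 3 and ETX replicates 6 and 7. These hearts are called atrial-rich below, and the other 3 averaged 5.58 to 6.13. Myl4, Myl7, Sln and Mybphl followed this grouping, and Nppa and Bmp10 did not. Nppa was also high in ETX replicate 10 (11.89, beside 12.12 and 12.48 in ETX replicates 6 and 7). Bmp10 was at 7.71 in PBS replicate 3 but at 2.79 and 2.94 in ETX replicates 6 and 7. Xist, transcribed in female cells, was at 8.34 to 8.41 in PBS replicate 3 and ETX replicates 6 and 10 and at 2.61 to 2.87 in the other 3. Where leaving out the lung-marked or the atrial-rich hearts moved the difference of a gene given heart by heart by over 1.5 times, that value stands beside it. With 1 heart left in a group, that heart was assumed to vary like the others. Of 14953 genes tested, 533 passed a limma adjusted p of 0.05, 170 higher and 363 lower in ETX. With each array centred on its median the split was 125 higher and 459 lower.

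Members of the matrix and fibroblast group that passed the test in ETX hearts were all lower: 5 of 39 fell and 0 rose. They were the basement membrane genes Hspg2 (perlecan) and Nid1 (nidogen-1), the small leucine-rich proteoglycan Ogn (osteoglycin), Tnxb (tenascin X, a glycoprotein of collagen-rich tissue) and the fibroblast receptor Pdgfra. The falls ran from 1.27-fold for Hspg2 to 1.42-fold for Pdgfra. Over all genes tested the share past the same threshold was 3.56%, with 2.43% lower and 1.14% higher, against 12.8% of the members lower. At an unadjusted limma p under 0.05, 7 members were higher and 11 lower, or 18 of 39, beside 21.9% of all genes tested, 8.86% higher and 13.1% lower. These members were listed with earlier results of these data known, so the share is a description.

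**Figure D1:**
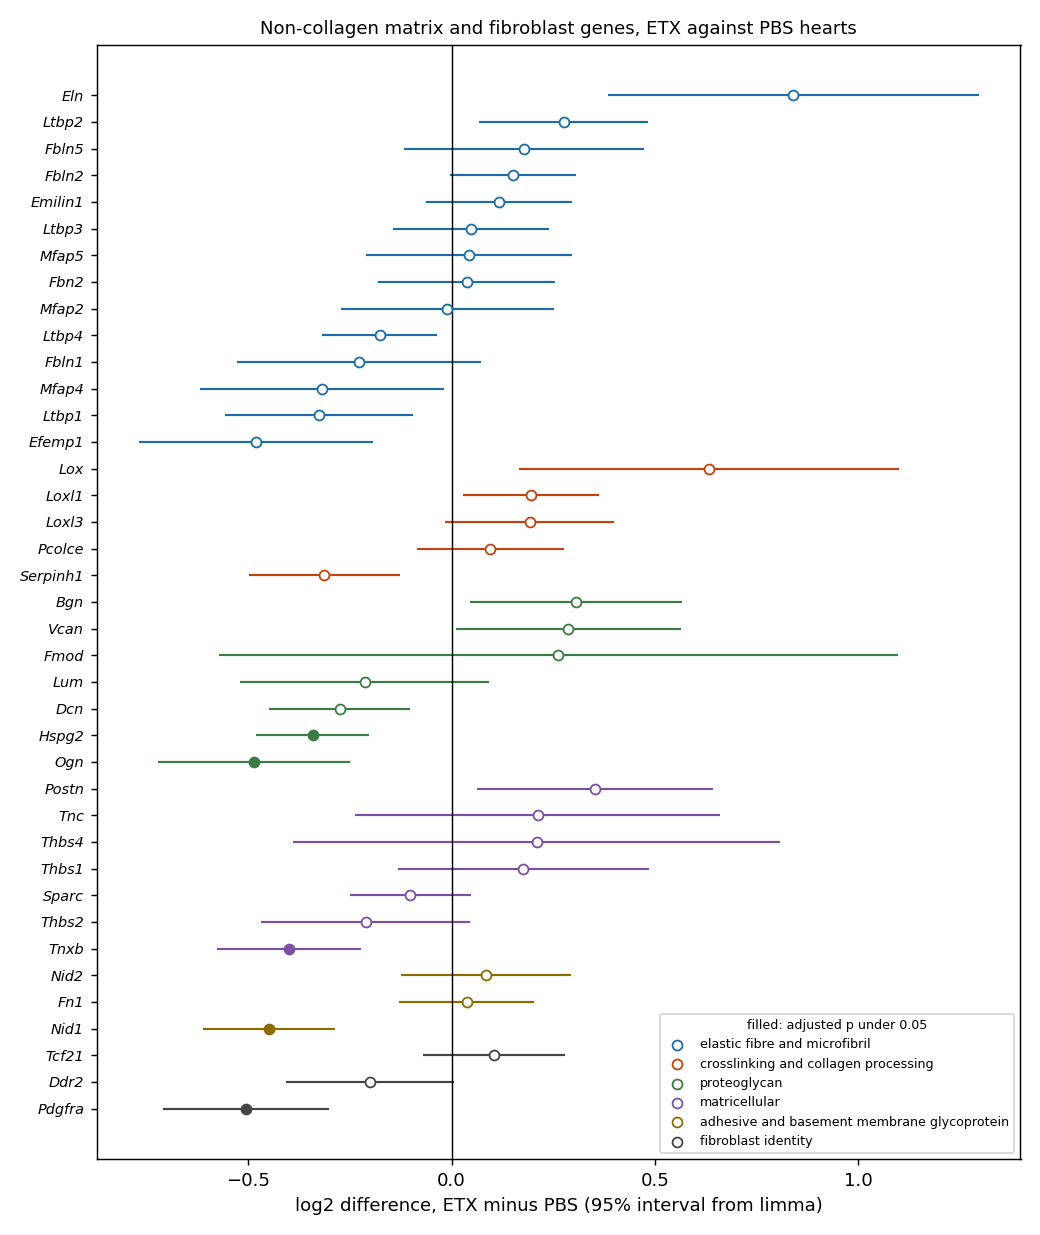
Difference between ETX and PBS hearts (log2, ETX minus PBS, points) with the 95% interval from limma (lines) for the 39 measured genes, coloured by role, with filled points for a limma adjusted p under 0.05. The 5 filled points lie between -0.50 and -0.34, and the largest difference, 0.84 for Eln, has an open point.

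The members as a whole did not shift one way. The median difference was 0.04 over the 39 members, 22 above 0 and 17 below, beside -0.01 over all genes tested. The median size of a difference regardless of sign was 0.21 for the members and 0.10 over all genes. In 18 of 39 members the ETX and PBS hearts did not overlap, 6 higher and 12 lower in ETX. The share without overlap over all genes tested was 27.7%, with 11.6% higher and 16.1% lower. The mean log2 level of the members ran from 7.85 to 8.01 in PBS and from 7.87 to 8.03 in ETX, so the groups overlapped. The sign of the median difference changed with the hearts used. It was -0.054 without PBS replicate 9 and -0.0025 without ETX replicate 7. Without both PBS hearts with lung transcripts it was -0.047, and without the atrial-rich hearts -0.030. Without PBS replicate 3 it kept its sign and was 0.109.

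Sequences at the start sites of genes that fell are shown as a description, and shared regulation of these genes was not tested. RefSeq promoter windows, 250 bases before to 50 after a gene's start in GRCm38.p6, were found for 28 of the 41 genes. The windows of Hspg2 (chr4:137468553-137468852), Nid1 (chr13:13437352-13437651), Ogn (chr13:49607765-49608064) and Pdgfra (chr5:75152001-75152300) all lie on the plus strand and are given 5′ to 3′. Capitals mark matches, on either strand and with overlaps counted, to a TATA box (TATAAA), a GC box (GGGCGG), an AP-1 site (TGANTCA), an E-box (CAGCTG), a TEAD site (GGAATG) or the palindromic SMAD element GTCTAGAC.
Hspg2: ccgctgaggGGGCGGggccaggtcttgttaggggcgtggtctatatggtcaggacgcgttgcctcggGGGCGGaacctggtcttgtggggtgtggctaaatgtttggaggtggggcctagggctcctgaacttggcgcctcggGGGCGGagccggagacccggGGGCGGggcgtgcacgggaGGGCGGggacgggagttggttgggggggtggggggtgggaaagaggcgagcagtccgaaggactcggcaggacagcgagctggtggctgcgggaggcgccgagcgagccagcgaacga
Nid1: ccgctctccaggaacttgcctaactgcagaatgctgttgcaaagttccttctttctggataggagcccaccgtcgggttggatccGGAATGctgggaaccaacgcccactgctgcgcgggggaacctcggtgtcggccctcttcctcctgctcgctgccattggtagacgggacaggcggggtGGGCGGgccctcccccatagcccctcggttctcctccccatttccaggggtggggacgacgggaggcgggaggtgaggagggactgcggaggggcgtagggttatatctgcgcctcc
Ogn: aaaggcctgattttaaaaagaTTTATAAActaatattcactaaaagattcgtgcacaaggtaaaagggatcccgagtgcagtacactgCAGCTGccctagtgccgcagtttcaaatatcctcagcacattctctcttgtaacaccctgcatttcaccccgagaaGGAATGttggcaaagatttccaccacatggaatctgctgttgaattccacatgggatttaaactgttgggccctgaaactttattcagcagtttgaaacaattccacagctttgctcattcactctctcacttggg
Pdgfra: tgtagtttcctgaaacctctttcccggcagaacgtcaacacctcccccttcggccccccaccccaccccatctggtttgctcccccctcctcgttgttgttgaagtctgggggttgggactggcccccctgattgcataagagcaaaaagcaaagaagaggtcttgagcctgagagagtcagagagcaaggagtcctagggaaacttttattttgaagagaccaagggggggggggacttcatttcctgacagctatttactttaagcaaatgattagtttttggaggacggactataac
The windows differed in composition. Hspg2 held 5 GC boxes in a window of 70.3% G and C, and Nid1 1 GC box and 1 TEAD site at 64.7%. Ogn had no GC box at 42.3% and held 2 overlapping TATA matches of opposite strands, 1 E-box and 1 TEAD site. Pdgfra held none of the 6 motifs, and the window of Tnxb held 1 AP-1 match. Over all 32851 windows of this length, 35.7% held a GC box, 16.3% the E-box, 14.7% the TEAD site, 13.6% the TATA box, 7.81% the AP-1 site and 0.213% the SMAD element. No motif was present in all 5 windows of the genes that fell. A match is a stretch of letters and not a measured binding site.

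Among the adhesive and basement membrane glycoproteins, Nid1 fell and its paralogue Nid2 did not pass. Nid1 was at 9.69, 9.71 and 9.78 in PBS replicates 3, 9 and 12 and at 9.22, 9.25 and 9.38 in ETX replicates 6, 7 and 10. Every PBS heart lay above every ETX heart. The means were 9.73 ± 0.05 in PBS and 9.28 ± 0.09 in ETX (SD, n = 3 per group), a 1.36-fold fall with a 95% interval of -0.61 to -0.29 on the log2 scale (limma adjusted p = 0.0226). Nid2, the second nidogen, differed by 0.08 (-0.13 to 0.29, limma adjusted p = 0.638), and its groups overlapped. Without 1 heart it ran from 0.007 (without PBS replicate 9) to 0.15 (without PBS replicate 3). Without the atrial-rich hearts the Nid2 difference was 0.22. Fn1, the fibronectin to which cells attach through integrins, was at 9.14 ± 0.05 in PBS and 9.17 ± 0.09 in ETX. Its difference was 0.04 (-0.13 to 0.20, limma adjusted p = 0.807). The sign of the Fn1 difference turned without ETX replicate 7 (-0.014) and without the atrial-rich hearts (-0.054).

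Of the 7 proteoglycans 2 fell, Hspg2 and Ogn, beside 2.43% of all genes tested. The median of the group was -0.21, or -0.073 without PBS replicate 12. Hspg2 was at 9.74, 9.74 and 9.70 in PBS replicates 3, 9 and 12 and at 9.41, 9.37 and 9.38 in ETX replicates 6, 7 and 10. The hearts of each group lay close together and far from those of the other. Hspg2 was 1.27-fold lower (9.73 ± 0.03 in PBS and 9.38 ± 0.02 in ETX, SD, n = 3 per group, interval -0.48 to -0.20, limma adjusted p = 0.0302). Ogn was at 10.25, 10.34 and 10.55 in PBS replicates 3, 9 and 12 and at 9.74, 10.02 and 9.91 in ETX replicates 6, 7 and 10. The groups did not overlap, and PBS replicate 12 was the highest. Ogn, whose product binds collagen fibrils, fell 1.40-fold (10.38 ± 0.16 in PBS and 9.89 ± 0.14 in ETX, interval -0.72 to -0.25, limma adjusted p = 0.046). Dcn was at 11.90, 11.81 and 12.03 in PBS replicates 3, 9 and 12 and at 11.63, 11.65 and 11.63 in ETX replicates 6, 7 and 10. Dcn encodes decorin, and its 3 ETX hearts lay close together and below all PBS hearts. The difference was -0.28 (-0.45 to -0.10) and did not pass (limma adjusted p = 0.0867). The other 4 proteoglycans ran in both directions and none passed. Lum (lumican) differed by -0.21 and Fmod (fibromodulin) by 0.26. Bgn (biglycan) differed by 0.31 (0.05 to 0.57). Vcan (versican, a large proteoglycan of the growing heart) differed by 0.29 (0.01 to 0.56), with all ETX hearts above all PBS hearts.

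Beside the basement membrane genes, some endothelial and macrophage markers fell in ETX. All 7 endothelial markers lay below 0 and 3 passed, with list means of 9.13 to 9.19 in PBS and 8.77 to 8.93 in ETX. Of the 7 mural markers, which mark pericytes and smooth muscle, all lay below 0 and 0 passed in limma, with 3 at an unadjusted p under 0.05 beside 21.9% of all genes (8.34 to 8.38 in PBS and 8.19 to 8.22 in ETX). All 8 macrophage markers lay below 0 and 5 passed (7.05 to 7.22 and 6.58 to 6.68). Over all genes tested, 2.43% passed as lower in ETX. The part of these cell types in the falls of Nid1, Hspg2 and the other members was not tested.

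The fibroblast identity genes did not move together. Pdgfra was at 8.40, 8.62 and 8.35 in PBS replicates 3, 9 and 12 and at 7.87, 7.97 and 8.02 in ETX replicates 6, 7 and 10. Pdgfra, the receptor for platelet-derived growth factor on cardiac fibroblasts, was lower in every ETX heart than in any PBS heart, and PBS replicate 9 was the highest. The fall was 1.42-fold (8.46 ± 0.14 in PBS and 7.95 ± 0.08 in ETX, SD, n = 3 per group, interval -0.71 to -0.30, limma adjusted p = 0.0302). Tcf21 was at 7.30, 7.24 and 7.20 in PBS replicates 3, 9 and 12 and at 7.25, 7.46 and 7.33 in ETX replicates 6, 7 and 10. Tcf21, a transcription factor needed to form cardiac fibroblasts, overlapped between the groups. Its difference was 0.10 (-0.07 to 0.28, limma adjusted p = 0.47), an interval that lies above that of Pdgfra, and it was 0.048 without ETX replicate 7. Ddr2 was at 6.99, 7.04 and 7.27 in PBS replicates 3, 9 and 12 and at 6.96, 6.81 and 6.93 in ETX replicates 6, 7 and 10. Ddr2, a receptor tyrosine kinase activated by collagen, was lower in the 3 ETX hearts without passing, with a difference of -0.20 (-0.41 to 0.01, limma adjusted p = 0.239). It was -0.12 without PBS replicate 12 and -0.37 without both lung-marked PBS hearts.

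**Figure D2:**
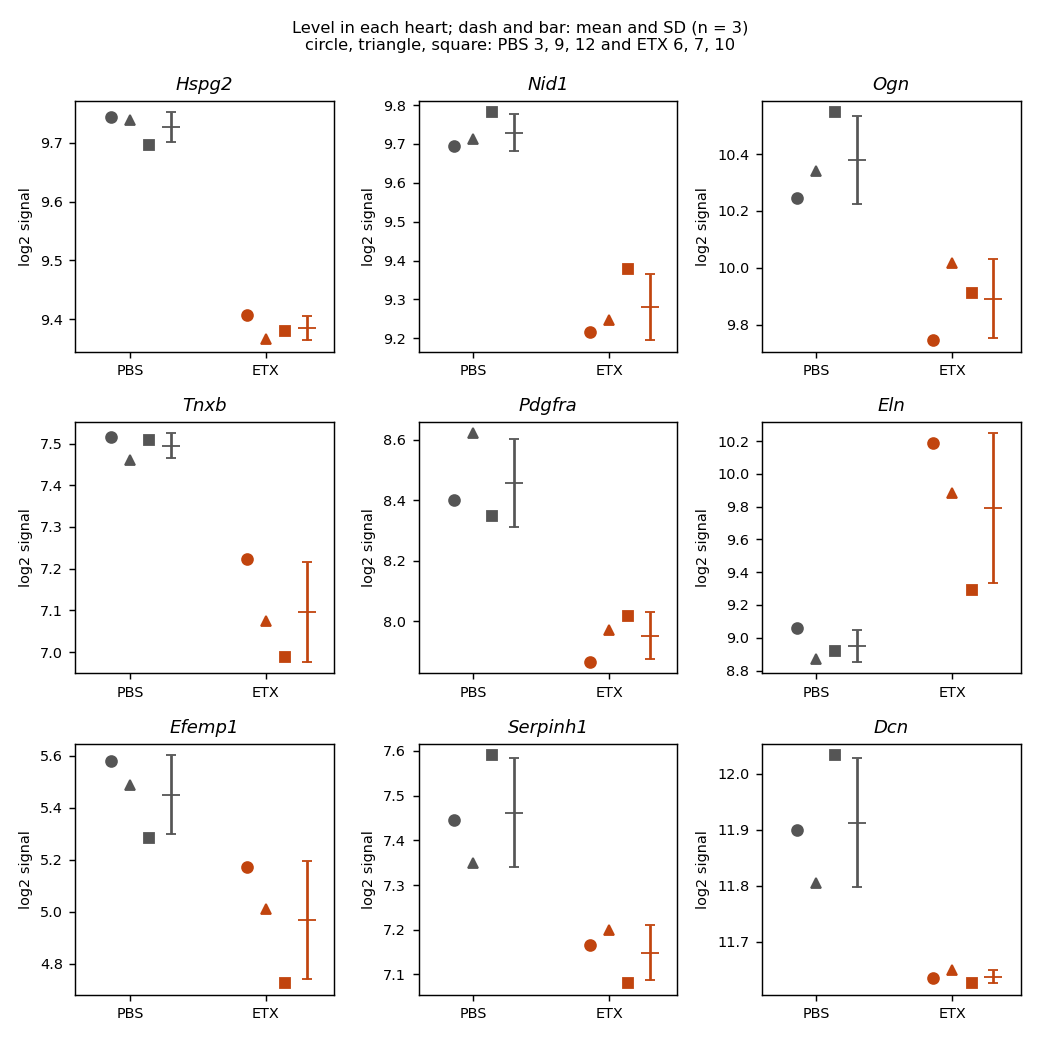
Log2 signal in each of the 6 hearts (symbols) with the mean and SD of each group of 3 (dash and bar) for the 5 genes that fell and the 4 with a limma adjusted p between 0.05 and 0.1, each on an axis of its own. PBS and ETX hearts are separate in all 9 panels, which were chosen by p in these same data, beside 27.7% of all genes tested. Eln spreads from 9.29 to 10.19 in ETX.

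Of the 7 matricellular genes 1 fell, Tnxb, beside 2.43% of all genes tested. Tnxb was at 7.52, 7.46 and 7.51 in PBS replicates 3, 9 and 12 and at 7.22, 7.08 and 6.99 in ETX replicates 6, 7 and 10. The 3 PBS hearts lay close together and all above ETX. The means were 7.49 ± 0.03 in PBS and 7.10 ± 0.12 in ETX (SD, n = 3 per group), a 1.32-fold fall (interval -0.58 to -0.22, limma adjusted p = 0.0363). Postn was at 10.30, 10.21 and 10.38 in PBS replicates 3, 9 and 12 and at 10.42, 10.93 and 10.59 in ETX replicates 6, 7 and 10. Postn encodes periostin, which is secreted by fibroblasts of the growing and injured heart, and was above PBS in all 3 ETX hearts, highest in ETX replicate 7. The difference of 0.35 (0.06 to 0.64) did not pass (limma adjusted p = 0.155), and without ETX replicate 7 it was 0.21. Thbs2, a thrombospondin that restrains vessel growth, differed by -0.21 (limma adjusted p = 0.316) and overlapped between the groups. It was -0.13 without PBS replicate 12, -0.34 without PBS replicate 9 and -0.38 without both lung-marked PBS hearts. The other 4, Sparc, Thbs1, Thbs4 and the tenascin Tnc, differed by -0.10 to 0.21 with limma adjusted p from 0.407 to 0.687. The median of the group, 0.18, was -0.12 without PBS replicate 9, -0.038 without ETX replicate 7 and 0.0096 without ETX replicate 6, and it was -0.11 without the lung-marked and -0.060 without the atrial-rich hearts.

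The elastic fibre and microfibril genes ran in both directions, and 0 of 14 passed in limma, with 6 at an unadjusted p under 0.05 beside 21.9% of all genes. Eln was at 9.06, 8.87 and 8.92 in PBS replicates 3, 9 and 12 and at 10.19, 9.89 and 9.29 in ETX replicates 6, 7 and 10. Eln encodes elastin, the protein of elastic recoil in arteries and valves. Every ETX heart was above every PBS heart, but ETX replicate 10 stood 0.24 above the highest PBS heart and ETX replicate 6 1.13 above it. The difference was 0.84 (8.95 ± 0.10 in PBS and 9.79 ± 0.46 in ETX, SD, n = 3 per group, interval 0.38 to 1.30), or 1.79-fold, and did not pass (limma adjusted p = 0.0594). It passed without ETX replicate 10, at 1.09 (limma adjusted p = 0.0224). Without the atrial-rich hearts (PBS replicate 3 and ETX replicates 6 and 7) it was 0.40 (limma adjusted p = 0.571). Among the 3 ETX hearts the 2 atrial-rich ones held the most Eln. The atrial-rich PBS replicate 3, at 9.06, was the highest of the PBS hearts. The part of atrial tissue in this difference was not tested.

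Efemp1 and Ltbp1 were lower on average. Efemp1 was at 5.58, 5.49 and 5.28 in PBS replicates 3, 9 and 12 and at 5.17, 5.01 and 4.73 in ETX replicates 6, 7 and 10. Efemp1, or fibulin-3, was lower in all 3 ETX hearts, with a difference of -0.48 (-0.77 to -0.19, limma adjusted p = 0.0764), and -0.31 without both lung-marked PBS hearts. Ltbp1 was at 7.04, 6.90 and 6.96 in PBS replicates 3, 9 and 12 and at 6.72, 6.78 and 6.43 in ETX replicates 6, 7 and 10. Ltbp1, which stores latent TGF-beta in the matrix, was also below PBS in every ETX heart and did not pass (-0.33, -0.56 to -0.09, limma adjusted p = 0.117), and without the atrial-rich hearts it differed by -0.51 (limma adjusted p = 0.535). The other latent TGF-beta binding proteins differed by -0.18 (Ltbp4), 0.05 (Ltbp3) and 0.28 (Ltbp2), and the groups of Ltbp2 and Ltbp4 did not overlap. The remaining 8 genes of the group, the fibrillin Fbn2, the fibulins Fbln1, Fbln2 and Fbln5, Emilin1 and the microfibril-associated proteins Mfap2, Mfap4 and Mfap5, lay between -0.32 and 0.18. Their limma adjusted p ran from 0.205 to 0.971. Among these 8 the groups of Fbln2 did not overlap, and those of the other 7 did.

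Among the crosslinking and collagen processing genes, 4 of 5 lay above 0 and none passed in limma, with 3 at an unadjusted p under 0.05 beside 21.9% of all genes. The median of the group was 0.19, and 0.12 without PBS replicate 9. Lox was at 6.26, 7.10 and 6.44 in PBS replicates 3, 9 and 12 and at 7.27, 7.39 and 7.03 in ETX replicates 6, 7 and 10. Lox encodes lysyl oxidase, which starts the crosslinking of collagen and elastin. PBS replicates 3 and 12 were low, while PBS replicate 9 lay inside the ETX range. The difference was 0.63 (0.17 to 1.10, limma adjusted p = 0.125), and without PBS replicate 9 it was 0.88 and passed (limma adjusted p = 0.0211). It was 0.46 without PBS replicate 3, and 0.26 without the atrial-rich hearts (limma adjusted p = 0.829). Loxl1 was at 7.50, 7.47 and 7.57 in PBS replicates 3, 9 and 12 and at 7.69, 7.81 and 7.63 in ETX replicates 6, 7 and 10. Loxl1, a lysyl oxidase that acts on elastic fibres, was higher in all 3 ETX hearts and did not pass (0.20, 0.03 to 0.36, limma adjusted p = 0.169), and differed by 0.11 without the atrial-rich hearts. Serpinh1 was at 7.45, 7.35 and 7.59 in PBS replicates 3, 9 and 12 and at 7.17, 7.20 and 7.08 in ETX replicates 6, 7 and 10. Serpinh1, the chaperone that folds procollagen in the endoplasmic reticulum, was the member of this group below 0, with no overlap (-0.31, -0.50 to -0.13, limma adjusted p = 0.0754). Loxl3 and the procollagen protease enhancer Pcolce differed by 0.19 and 0.09.

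**Figure D3:**
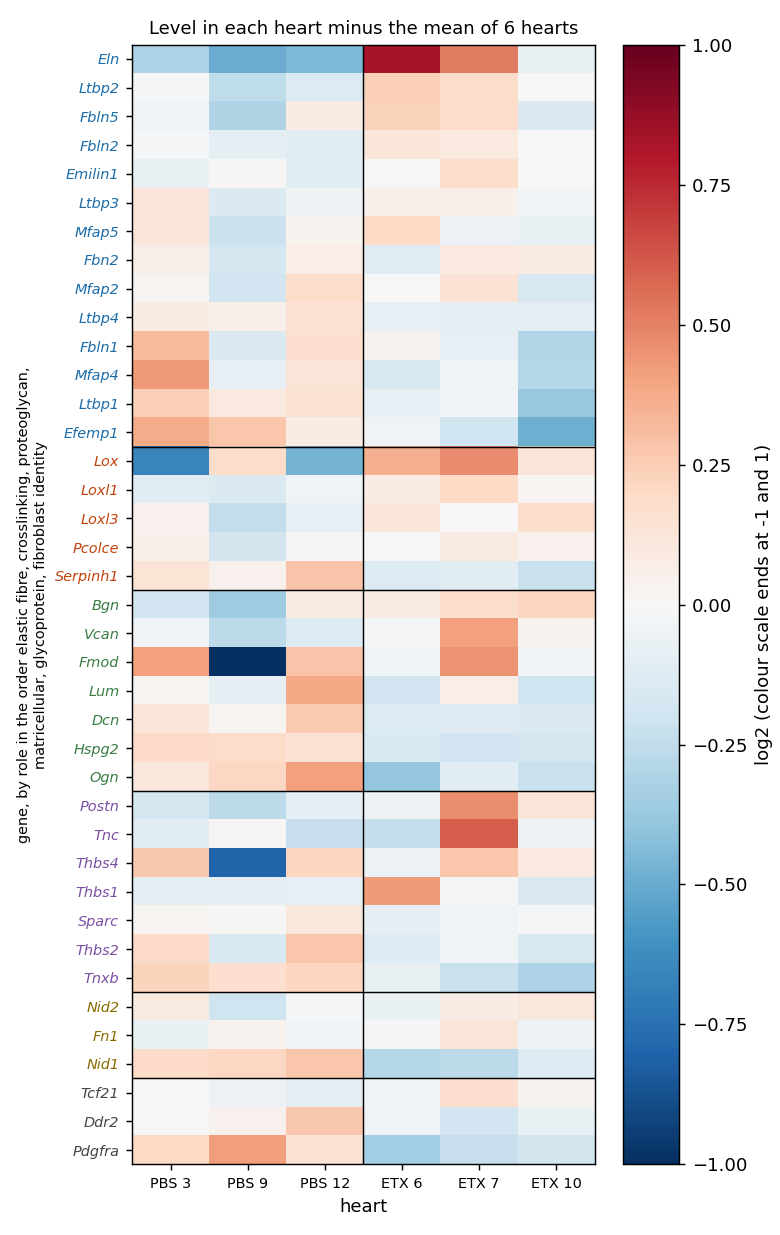
Log2 signal of the 39 genes (rows, by role) in each heart (columns) minus the gene's mean over the 6 hearts, red above and blue below it. PBS replicate 9 is lowest for Fmod (5.47) and Thbs4 (5.47), and Eln is highest in ETX replicates 6 and 7.

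For the 5 genes that fell, every ETX heart lay below every PBS heart, so leaving out hearts could not change their direction. With any 1 heart left out, most lost the call. Nid1 passed in 2 of 6 such fits, Pdgfra and Tnxb in 1 each, and Hspg2 and Ogn in 0, with limma adjusted p of up to 0.13. The difference ran from -0.36 to -0.33 for Hspg2, from -0.50 to -0.42 for Nid1, from -0.55 to -0.40 for Ogn, from -0.46 to -0.35 for Tnxb and from -0.56 to -0.42 for Pdgfra. Without both PBS hearts with lung transcripts these were -0.31, -0.50, -0.66, -0.41 and -0.40. Without the 3 atrial-rich hearts they were -0.34, -0.37, -0.53, -0.50 and -0.47. The sizes thus moved by less than 1.5 times while none passed in either fit, in which a group holds 1 heart, with limma adjusted p from 0.113 to 0.593.

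**Figure D4:**
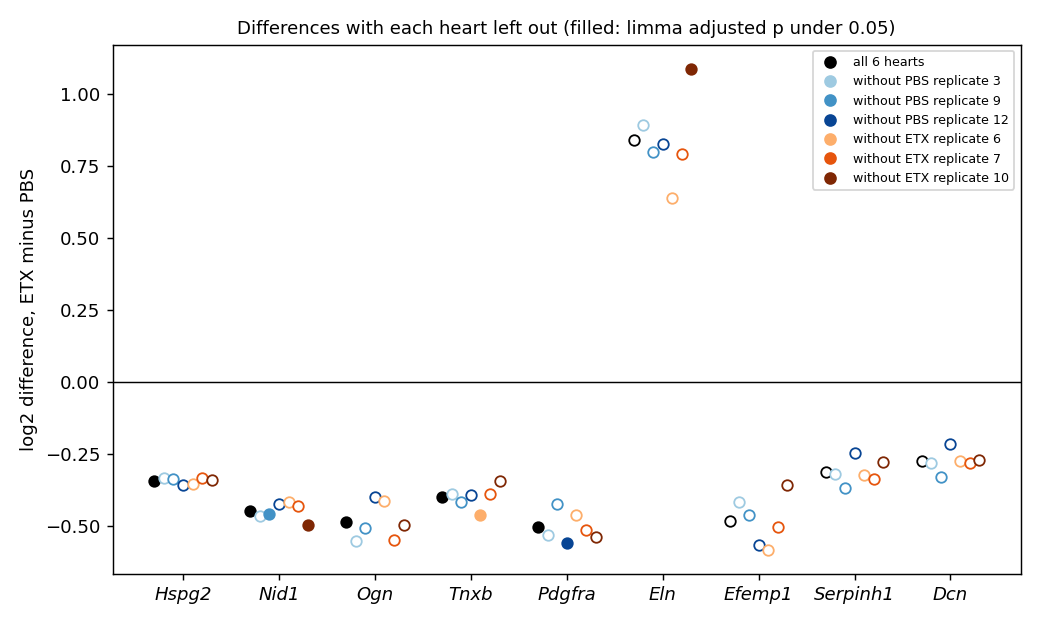
Difference between ETX and PBS (log2) for 9 genes over all 6 hearts (black) and with each heart left out (coloured), filled where the limma adjusted p was under 0.05. All points of the 5 genes that fell lie below 0, as they must because their groups did not overlap. Eln runs from 0.64 to 1.09.

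Of the TGF-beta pathway, the main inducer of matrix genes in fibroblasts, 21 genes are described here. Of these 2 fell, 0 rose, and 18 lay below 0, with a median of -0.11. Over all genes tested 2.43% were lower and 1.14% higher past the same threshold, and the median was -0.01. Tgfbi was at 8.05, 8.09 and 7.88 in PBS replicates 3, 9 and 12 and at 7.25, 7.25 and 7.11 in ETX replicates 6, 7 and 10. Tgfbi, a secreted protein induced by TGF-beta, was 1.74-fold lower (8.01 ± 0.11 in PBS and 7.21 ± 0.08 in ETX, SD, n = 3 per group, interval -0.99 to -0.61, limma adjusted p = 0.006). Itgb6 was at 6.36, 6.59 and 6.25 in PBS replicates 3, 9 and 12 and at 5.61, 5.64 and 5.60 in ETX replicates 6, 7 and 10. Itgb6, a subunit of an integrin that frees active TGF-beta, was 1.72-fold lower (interval -0.996 to -0.57, limma adjusted p = 0.00836). For both genes all PBS hearts lay above all ETX hearts, and both passed in all 6 fits without 1 heart. Without both PBS hearts with lung transcripts Tgfbi differed by -0.68 (limma adjusted p = 0.0763) and Itgb6 by -0.64 (0.0761). The ligands Tgfb1, Tgfb2 and Tgfb3 differed by -0.12 to -0.02, and the receptors Tgfbr1 and Tgfbr2 by -0.07 and -0.13, and none of them passed. The 3 genes above 0 were Pmepa1 (0.28, interval 0.02 to 0.53, limma adjusted p = 0.201), Eng (0.07) and Smad7 (0.05). None of these passed, and the groups overlapped for each.

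Of 10 other fibroblast genes, collagens included, 1 fell and 0 rose, beside 2.43% lower and 1.14% higher over all genes tested. In these 10 genes, 7 lay below 0 and the median was -0.13. That median was -0.21 without PBS replicate 9, -0.051 without PBS replicate 12 and -0.078 without ETX replicate 10. Smoc2 was at 7.28, 7.19 and 7.38 in PBS replicates 3, 9 and 12 and at 6.71, 6.79 and 6.90 in ETX replicates 6, 7 and 10. Smoc2, a secreted calcium-binding matrix protein related to Sparc, fell 1.40-fold (7.28 ± 0.09 in PBS and 6.80 ± 0.09 in ETX, interval -0.66 to -0.30, limma adjusted p = 0.0251), with no overlap between the groups. It passed in 2 of 6 fits without 1 heart. Of 7 genes of activated fibroblasts, which include smooth muscle genes, none passed in limma and 1 had an unadjusted p under 0.05, beside 21.9% of all genes. Cthrc1 was at 5.32, 4.92 and 5.24 in PBS replicates 3, 9 and 12 and at 5.77, 6.50 and 5.64 in ETX replicates 6, 7 and 10. Cthrc1, a secreted protein of activated fibroblasts, was higher in all 3 ETX hearts, most in ETX replicate 7, and did not pass (0.81, interval 0.32 to 1.31, limma adjusted p = 0.0802). Fap, a fibroblast surface protease, differed by -0.38 (-0.79 to 0.02, limma adjusted p = 0.254), without ETX replicate 6 by -0.16, and without the atrial-rich hearts by -0.14. The markers of mesothelium and epicardium, the outer cell layer of the heart, gave 6 tested genes. All lay above 0 and none passed in limma, with 3 at an unadjusted p under 0.05 beside 21.9% of all genes. Means over the 7 measured markers, including Bnc1, which the filter on dim genes left out, were 4.35 to 4.88 in PBS and 4.68 to 4.99 in ETX. The part of this cell layer in these differences was not tested.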

How the data were processed

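Total RNA of 6 mouse hearts was measured on Affymetrix whole-transcript arrays. The log2 values deposited by the authors were made with Affymetrix Expression Console and RMA, per the submitters' processing notes. No version or annotation is named there. RMA corrects background, gives all arrays 1 shared distribution, summarises probes by median polish and shrinks the differences of faint transcripts, and there is no detection call. Of 35556 transcript clusters, a platform annotation gave 21789 1 gene symbol, 1621 several and 12146 none. Gene identifiers of 21698 of the first were in a RefSeq table (GRCm38.p6), which changed 0 symbols. The brightest single-gene cluster stood for a gene, and genes under the lower quartile of gene means were left out.

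The test of ETX against PBS used limma 3.58.1 in R 4.3.3 (lmFit, eBayes, two-sided, Benjamini-Hochberg over all genes tested). Groups came from the sample titles. The members, lists, alternatives and tests were chosen with earlier results of these data known. Named with their values are members past the threshold or with an adjusted p under 0.1, the 3 with the smallest p of each role, the fibroblast identity genes, and pathway genes past the threshold or else the 2 with the smallest p. Alternatives were other filters, eBayes options, array weights, normalizations, the mean of a gene's clusters, an unmoderated model, hearts left out, and the lung score, atrial score or Xist as a covariate. In data simulated for ETX against PBS with 14953 genes, 91% of 100 genes changed 1.5-fold and 98% of 100 changed 2-fold were recovered. In the same data 15 other genes were called. The simulated errors were normal and independent between genes, with no pattern shared within a heart, such as lung or atrial transcripts. The 5 members called changed by 1.27- to 1.42-fold, less than the simulated sizes, so the recovery of such changes was not measured. Plots were made with matplotlib 3.10.9 and Python 3.11.15.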

Additional observations from a re-analysis of the deposited data

How the results depend on the processing

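In limma 5 members were called, all lower; 8 were called with a trend on mean level (7 lower, and Eln higher) and 9 with the stricter filter on dim genes (8 lower, and Eln higher). With the lung score, the atrial score or Xist as a covariate, in the unmoderated linear model, without both PBS hearts with lung transcripts and without the 3 atrial-rich hearts, 0 were called, with 14, 17, 18, 14, 13 and 8 at an unadjusted p under 0.05. Without 1 heart 0 to 2 were called. Over all genes tested, 533 were called, and 870 with a trend, 909 with the stricter filter, 75, 141 and 126 with the lung score, atrial score and Xist, 0 in the unmoderated model (2738 at an unadjusted p under 0.05), 19 and 2 without the lung-marked or the atrial-rich hearts, and 94 to 241 without 1 heart. The median of the members, 0.043, was -0.076 with the lung score, -0.047 without both PBS hearts with lung transcripts, and -0.054 (without PBS replicate 9) to 0.109 (without PBS replicate 3) without 1 heart. The covariates and omissions leave fewer degrees of freedom. With no filter on dim genes and with array weights Ogn did not pass (limma adjusted p = 0.0555 and 0.051), nor did Tnxb with a further quantile normalization (0.054). The 5 members called and Tgfbi, Itgb6 and Smoc2 kept their sign in all 20 alternatives. Where hearts were left out, the sign could not change because the groups of these genes did not overlap. No paired analysis was possible because the groups share no replicate number.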

Other observations

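The following genes were singled out after their values were seen. Fmod (fibromodulin), Thbs4 (a thrombospondin of tendon and muscle), Cilp and Comp (proteins first known from cartilage) were each lowest in PBS replicate 9. Fmod was at 5.47 there and at 6.53 to 7.01 in the other 5 hearts, and Thbs4 at 5.47 against 6.21 to 6.54. Comp was at 4.93 against 5.05 to 5.60, and Cilp at 4.90 against 5.15 to 5.87. Fmod and Thbs4 had the widest spread within groups of the 39 members, with pooled SDs of 0.62 and 0.44 beside a median of 0.13. Thbs1 was high in ETX replicate 6 (8.09, against 7.52 to 7.65 in the other 5 hearts), as was the smooth muscle gene Cnn1 (6.46, against 4.96 to 5.72). Tnc was high in ETX replicate 7 (5.60, against 4.76 to 5.01).

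The pairs below were also chosen after their values were seen, so the values are a description with no test. Bgn and Dcn are closely related proteoglycans. Relative to the PBS mean, the log2 signal of Bgn minus that of Dcn was -0.03, -0.10 and 0.12 in PBS replicates 3, 9 and 12 and 0.50, 0.59 and 0.65 in ETX replicates 6, 7 and 10. For Tcf21 minus Pdgfra the values were 0.11, -0.17 and 0.06 in PBS and 0.60, 0.70 and 0.53 in ETX. Both were higher in 3 of 3 ETX hearts than in any PBS heart, by 0.58 and 0.61 on average.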
